A study of Mus musculus with 6 samples.

Results

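The R-spondins, their Lgr receptors and the ubiquitin ligases they act on were examined in osteogenic cultures of mesenchymal stem cells (MSCs) from control mice and from mice with a conditional *Pcif1* knockout. The group was chosen by gene symbol and holds 9 of the 20071 genes in the count table. It comprises 4 ligands (Rspo1 to Rspo4), 3 receptors (Lgr4, Lgr5 and Lgr6) and 2 ligases (Znrf3 and Rnf43). Of these, 6 had enough reads to be tested and 3 (Rspo1, Rspo4 and Rnf43) did not.

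R-spondins are secreted proteins that strengthen Wnt signaling without acting as Wnt ligands themselves. ZNRF3 and RNF43 are membrane-bound ubiquitin ligases that remove Frizzled receptors and LRP co-receptors from the cell surface. An R-spondin bridges one of these ligases to LGR4, LGR5 or LGR6 and takes the ligase off the membrane, so that Wnt receptors remain in place. Lgr5, Rnf43 and Znrf3 are themselves known target genes of Wnt signaling, which makes the module a feedback loop. In bone, R-spondins are known to favour osteoblast differentiation.

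Cells were marrow MSCs from femurs of 6-week-old C57BL/6J mice, kept for 7 days in osteogenic medium. This medium held dexamethasone at 100 nM, ascorbic acid at 50 μg/mL and β-glycerophosphate at 5 mM. Both groups carried 2 floxed *Pcif1* alleles, with loxP sites around exons 5 to 7. Controls (*Pcif1fl/fl*, named WT in the labels) lacked the recombinase, and knockouts (*Prrx1-Cre;Pcif1fl/fl*, named CKO) carried Prrx1-Cre, which is active in limb mesenchyme and its descendants and not in blood cells. There were 3 poly(A) RNA libraries per genotype, although the deposited design text speaks of duplicates, and nothing says whether each came from a separate mouse. P-values therefore measure the spread between these libraries, which may be technical.

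The libraries held 20258209 to 28227696 counts. Some of their properties moved with genotype or set 1 library apart. Xist, which is transcribed from an inactive X chromosome, was at 232 to 443 CPM (read counts scaled to a common library total and for library composition) in controls and 0.722 to 1.79 CPM in knockouts, while reads of 4 Y-linked genes (Uty, Kdm5d, Ddx3y and Eif2s3y) occurred in every library, at a higher level in each knockout than in any control. The knockout libraries thus held almost only RNA of male cells, and the control libraries RNA of both sexes. This difference in sex and the genotype cannot be told apart. None of the 9 members lies on a sex chromosome. Mitochondrial genes took 3.63% of the counts in *Pcif1fl/fl* replicate 3 and 1.40% to 1.57% in the others. Pcif1 itself averaged 41.3 ± 1.79 and 38.9 ± 1.01 CPM in controls and knockouts (SD, n = 3 each), and counts over the whole gene do not show whether exons 5 to 7 were lost.

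The labelled cell type was checked against marker genes. All 10 stromal markers were detected in both genotypes, with control means from 3.20 CPM (Thy1) and 6.49 CPM (Nt5e) to 4105 CPM (Col1a2). Prrx1, whose promoter drives the Cre, had means of 236 ± 41.1 and 280 ± 3.63 CPM in controls and knockouts (SD, n = 3 each), with overlapping libraries. Of the 10, 6 were higher and 3 (Pdgfra, Pdgfrb and Eng) lower in every knockout library than in any control, where 15.0% and 15.7% of all genes tested did so. Macrophage markers were also abundant. The 12 macrophage genes summed to between 31390 and 34825 CPM in controls and between 32314 and 35477 CPM in knockouts, most of it Lyz2 (22767 to 25242 CPM against 21980 to 26233 CPM). Of the 12, Cx3cr1 was called higher in knockouts, at an adjusted p under 0.05 and a change of at least 1 on the log2 scale (log2 fold change 1.24, adjusted p = 0.0293 from edgeR), Fcgr1 passed the adjusted p with a log2 fold change of 0.89 (adjusted p = 0.00605 from edgeR), and 4 were higher and 1 lower in every knockout library than in any control, against the same 15.0% and 15.7% of all genes. The cultures thus held RNA of macrophages beside that of stromal cells in both genotypes. In bulk RNA, fewer cells of a type and less RNA per cell cannot be told apart, and this holds for every value that follows.

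PCIF1 methylates a transcript only where its first base, next to the cap, is an adenosine, so the annotated first base of the members is shown. RefSeq promoters on GRCm38.p6 were found for 5 of the 9 members, Rnf43 with 2 starts. Rspo2, Rspo3, Lgr5 and Znrf3 had no entry. Each line gives the 24 bases before the start, the first transcribed base in capitals and the next 5 bases, 5′ to 3′ on the gene's own strand.
Lgr4, chr2:109917623-109917652, plus strand: ctcccgaggcgagcgtgcaaccctAgaagg
Lgr6, chr1:135105271-135105300, minus strand: cgctgccgccgccgcgcccaagccAagtcg
Rspo1, chr4:124986406-124986435, plus strand: gggccggccgggggtggcgccgggGgattc
Rspo4, chr2:151842903-151842932, plus strand: ccgcgcggccgcgctgacgccctcActcga
Rnf43, upstream start, chr11:87663063-87663092, plus strand: agtgcgagcacttggtctgattgcAgagtg
Rnf43, downstream start, chr11:87699873-87699902, plus strand: ggtctgaacttagttcagaagattGttcat
The annotated first base was A for Lgr4, Lgr6, Rspo4 and the upstream start of Rnf43, and G for Rspo1 and the downstream start of Rnf43. Of all 32851 promoters in the table, 34.4% start with A and 35.6% with G. Lgr4 and Lgr6, the members shown that could be tested, therefore share an A as annotated first base, while only Lgr6 was called different between genotypes. An annotated start is not a measured one, and these libraries hold no measurement of the methylation. The letters CTTTGA, the core that TCF/LEF factors of the Wnt pathway recognise, were searched on both strands of the 300 bases from 250 before each start. They occurred in none of the 6 member promoters and in 16.0% of all promoters. At that rate, their absence from 6 promoters says little of the group. Rspo2, Rspo3, Lgr5 and Znrf3, which had no entry, could not be searched.

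Of the 6 members tested, 3 were lower in knockouts (Rspo2, Rspo3 and Lgr5) and 1 was higher (Lgr6), at an adjusted p under 0.05 and a change of at least 1 on the log2 scale. Among all 13733 genes tested, 2.50% were called lower and 1.03% higher by the same rule, 3.53% in all. Lgr4 and Znrf3 were not called. The median log2 fold change of the 6 members was -0.90, against 0.0017 over all genes tested. In 4 members every knockout library lay below every control library and in 1 above, where 15.7% and 15.0% of all genes tested did so (30.8% together). The plot of levels by library shows the values behind these counts.

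**Figure D1:**
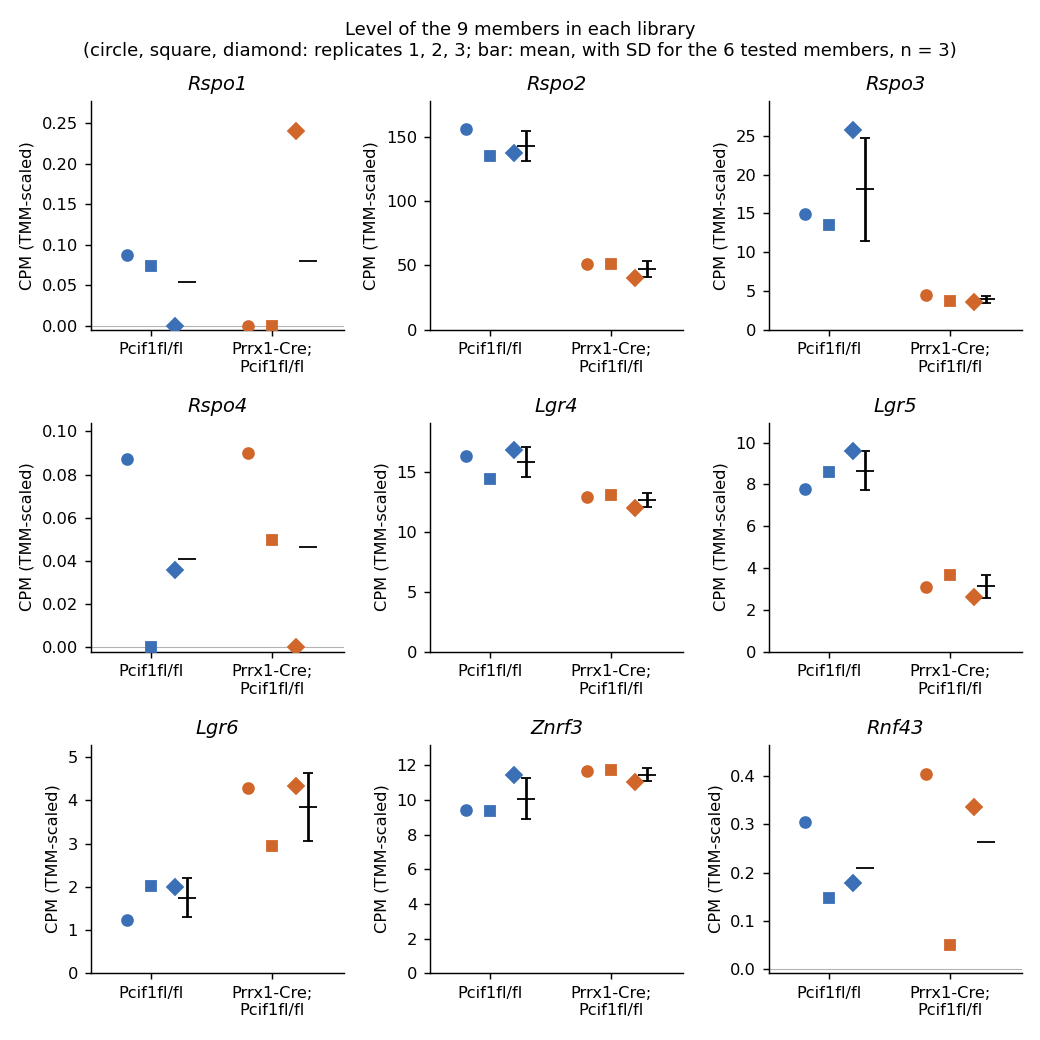
Level of each of the 9 members in CPM (y axis, a separate scale per gene) in the 3 Pcif1fl/fl and 3 Prrx1-Cre;Pcif1fl/fl libraries; symbols mark replicates 1 to 3 and the bar marks the mean, with the SD where the gene was tested. Rspo2, Rspo3, Lgr4 and Lgr5 are lower in every knockout library, Lgr6 is higher in every one, and Rspo1, Rspo4 and Rnf43 stay under 0.5 CPM.

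Among the ligands, Rspo2 (ENSMUSG00000051920, chromosome 15, 43020794 to 43170826, GRCm38) carried most of the signal. It is the R-spondin required for normal limb outgrowth. Controls had 156, 135 and 138 CPM and knockouts 51.0, 51.0 and 39.9 CPM in replicates 1 to 3. The lowest control thus stood far above the highest knockout, and the spread within each genotype was small. The means of 143 ± 11.6 CPM and 47.3 ± 6.44 CPM (SD, n = 3 each) correspond to a 3.02-fold lower level in knockouts (log2 fold change -1.60, 95% interval -1.88 to -1.31, adjusted p = 0.000234 by the quasi-likelihood F test of edgeR, adjusted after Benjamini and Hochberg).

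Rspo3 (ENSMUSG00000019880, chromosome 10, 29452416 to 29535867), an R-spondin known from vascular development and from bone, was also lower. Its level was 15.0, 13.6 and 25.7 CPM in controls and 4.41, 3.68 and 3.61 CPM in knockouts. The knockout libraries lay close together, whereas *Pcif1fl/fl* replicate 3 stood above the other 2 controls. The log2 fold change was -2.21 (95% interval -2.82 to -1.61, adjusted p = 0.00174 from edgeR), a 4.63-fold lower level. Without *Pcif1fl/fl* replicate 3 it was -1.86 (adjusted p = 2.39e-07 from edgeR). The antisense gene Gm48159 overlaps 13.1% of the exonic bases of Rspo3, and the use of strand in counting is not given in the sources used here. No other member has an exonic overlap with another gene.

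The remaining ligands were barely counted. Rspo1 (chromosome 4, 124986430 to 125009099) had 2, 2 and 0 reads in controls and 0, 0 and 5 in knockouts. Rspo4 (chromosome 2, 151842927 to 151874668), an R-spondin known for its part in nail formation, had 2, 0 and 1 reads in controls and 2, 1 and 0 in knockouts. A count of 0 allows up to 3 counts, which is 0.108 to 0.149 CPM in these libraries. A difference in either gene was not detectable at this depth, and no fold change is given. The ligand RNA counted was thus almost entirely that of Rspo2 and Rspo3.

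The receptors did not move together. Lgr4 (ENSMUSG00000050199, chromosome 2, 109917647 to 110014257) is the broadly expressed receptor of the family. It was at 16.3, 14.4 and 16.8 CPM in controls and 12.9, 13.1 and 12.0 CPM in knockouts, so the genotypes did not overlap. The log2 fold change of -0.32 had a 95% interval from -0.60 to -0.043 and did not pass the threshold after adjustment (adjusted p = 0.17 from edgeR). A change of -1 lies outside that interval.

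Lgr5 (ENSMUSG00000020140, chromosome 10, 115450311 to 115587780) is a marker of Wnt-responsive stem cells in several epithelia. Its level was 7.77, 8.60 and 9.61 CPM in controls and 3.11, 3.68 and 2.60 CPM in knockouts. The highest knockout library was below the lowest control by more than the range of either genotype. The level was 2.77-fold lower (log2 fold change -1.47, 95% interval -1.88 to -1.05, adjusted p = 0.00204 from edgeR).

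Lgr6 (ENSMUSG00000042793, chromosome 1, 134983301 to 135105276), a receptor first studied in skin stem cells, went the other way. It was at 1.22, 2.02 and 2.01 CPM in controls and 4.28, 2.94 and 4.33 CPM in knockouts, from 28, 55 and 56 reads and from 95, 59 and 90 reads. The genotypes did not overlap, but these were in total the fewest reads of any member tested, and *Prrx1-Cre;Pcif1fl/fl* replicate 2 was close to the controls. The level was 2.18-fold higher (log2 fold change 1.13, 95% interval 0.52 to 1.73, adjusted p = 0.0393 from edgeR). The call was lost without any 1 of *Pcif1fl/fl* replicates 1 and 2 or *Prrx1-Cre;Pcif1fl/fl* replicates 1, 2 and 3, with log2 fold changes from 0.94 to 1.29 and adjusted p from 0.056 to 0.166, and held without *Pcif1fl/fl* replicate 3 (1.23, adjusted p = 0.0056, all from edgeR).

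The ligase Znrf3 (ENSMUSG00000041961, chromosome 11, 5276324 to 5444847) was at 9.39, 9.37 and 11.4 CPM in controls and 11.7, 11.7 and 11.0 CPM in knockouts. *Pcif1fl/fl* replicate 3 lay within the knockout range, so the genotypes overlapped. The log2 fold change was 0.19 (95% interval -0.13 to 0.50, adjusted p = 0.488 from edgeR), and a change of 1 in either direction lies outside that interval. Rnf43 (ENSMUSG00000034177, chromosome 11, 87662722 to 87735539), the closest relative of Znrf3, had 7, 4 and 5 reads in controls and 9, 1 and 7 in knockouts. Fitted with no expression filter its log2 fold change was 0.35, with a 95% interval from -1.33 to 2.02 that spans changes of more than 1 both ways (adjusted p = 0.844 from edgeR).

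**Figure D2:**
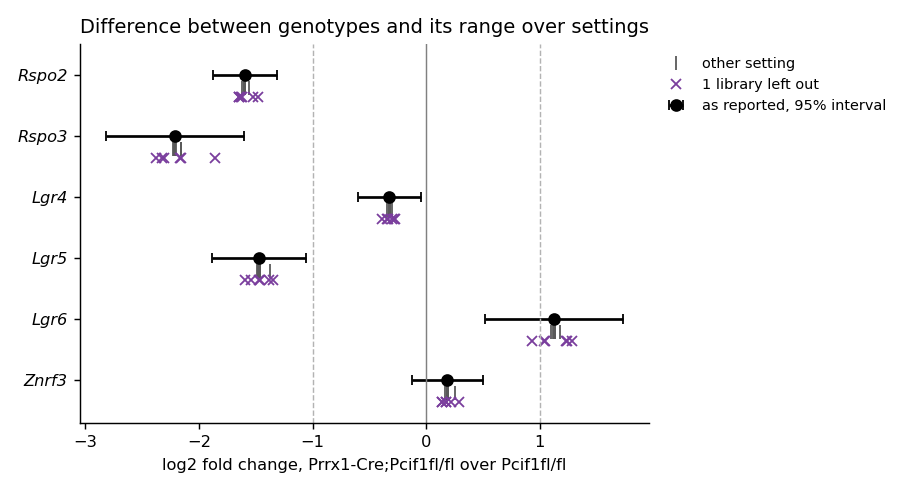
Log2 fold change of Prrx1-Cre;Pcif1fl/fl over Pcif1fl/fl (x axis) for the 6 members tested; the dot is the reported value with its 95% interval, crosses are fits without 1 library, upright ticks are other settings and dashed lines mark -1 and 1. Rspo2, Rspo3 and Lgr5 stay below -1 in every fit, Lgr4 between -0.39 and -0.27, Znrf3 between 0.14 and 0.29, and Lgr6 between 0.94 and 1.29.

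To compare members with each other, levels were divided by the length of their exons. In controls the order was Rspo2 (28.0 ± 2.27 CPM per kb, SD, n = 3), Rspo3 (5.86 ± 2.16), Lgr4 (2.69 ± 0.214), Znrf3 (1.28 ± 0.15), Lgr5 (0.844 ± 0.0895) and Lgr6 (0.256 ± 0.0667), with no overlap between neighbours. Rnf43, Rspo1 and Rspo4 came last and overlapped each other. In knockouts the order was Rspo2 (9.26 ± 1.26 CPM per kb, SD, n = 3), Lgr4 (2.15 ± 0.102), Znrf3 (1.45 ± 0.0484), Rspo3 (1.26 ± 0.144), Lgr6 (0.562 ± 0.115) and Lgr5 (0.305 ± 0.0529). Rspo3 thus stood below Lgr4 in knockouts, and its libraries overlapped those of Znrf3. The order of Lgr5 and Lgr6 was the opposite of that in controls. The length used is that of all annotated exons of a gene, which is long for Lgr5 (10264 bases) and short for Rspo3 (3090 bases), so an order between genes depends on which transcripts these cells make.

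Summed over the 4 ligands, R-spondin RNA was at 35.5, 30.9 and 35.2 CPM per kb in controls and 11.5, 11.2 and 9.09 CPM per kb in knockouts. The genotypes did not overlap, and the sum was 3.21-fold lower in knockouts by the mean of its log2 values (log2 ratio -1.68, exact two-sided permutation p = 0.1, the smallest that 3 against 3 libraries can give). Rspo2 made up 82.7 ± 5.53% (SD, n = 3) of the sum in controls and 87.4 ± 1.69% (SD, n = 3) in knockouts, and these shares overlapped. The share of Rspo3 was 13.7%, 14.2% and 23.6% in controls and 12.5%, 10.6% and 12.8% in knockouts. The ratio of Rspo2 to Rspo3 per kb was 6.31, 6.02 and 3.23 in controls and 6.99, 8.37 and 6.68 in knockouts, and its log2 difference of 0.56 was 0.25 without *Pcif1fl/fl* replicate 3. Most of the difference in that ratio therefore rested on 1 library.

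**Figure D3:**
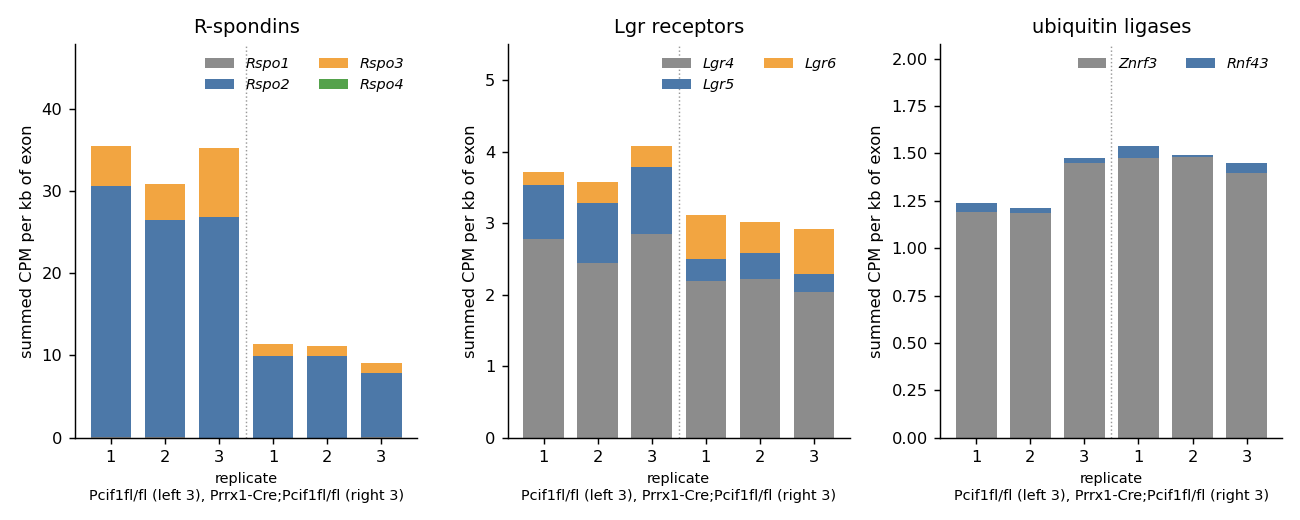
Stacked bars of CPM per kb of exon (y axis, from 0) for the R-spondins, the Lgr receptors and the ubiquitin ligases in each of the 6 libraries (x axis, replicates 1 to 3 of each genotype). The R-spondin stack is 3.21-fold lower in knockouts by the mean of its log2 values. The receptor stack is lower in each knockout library than in any control, at a log2 ratio of -0.33. For both stacks the exact permutation p is 0.1, the smallest possible. The shares of Lgr5 and Lgr6 do not overlap between genotypes, and the ligase stack is nearly all Znrf3.

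The sum of receptor RNA was lower in every knockout library than in any control, as were 15.7% of all genes tested. The sum over Lgr4, Lgr5 and Lgr6 was 3.79 ± 0.259 CPM per kb in controls and 3.02 ± 0.101 CPM per kb in knockouts (SD, n = 3 each). The log2 ratio was -0.33 (exact permutation p = 0.1, the smallest that 3 against 3 libraries can give). Lgr4, which was not called, was 71.0 ± 3.36% of the sum in controls and 71.3 ± 2.24% in knockouts (SD, n = 3 each). Of the same sum, Lgr5 made up 22.2 ± 1.61% in controls and 10.1 ± 1.66% in knockouts. Lgr6 made up 6.74 ± 1.76% and 18.6 ± 3.89% (SD, n = 3 each), with no overlap for either.

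The ratio of Lgr5 to Lgr6 per kb, which does not depend on library scaling, was 4.24, 2.84 and 3.19 in controls and 0.485, 0.837 and 0.40 in knockouts. Per kb of annotated exon, Lgr5 RNA thus exceeded Lgr6 RNA in every control library and was below it in every knockout library. Without the division by length this order did not hold in *Prrx1-Cre;Pcif1fl/fl* replicate 2, which had 74 reads of Lgr5 and 59 of Lgr6, while the difference between genotypes does not depend on length. The log2 difference was -2.63 (exact permutation p = 0.1), and it ranged from -2.94 to -2.41 when any 1 library was left out. The ratio of Lgr4 to Lgr5 had a log2 difference of 1.16 and that of Lgr4 to Lgr6 one of -1.47 (exact permutation p = 0.1 each).

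Ligase RNA did not follow the ligands. The sum of Znrf3 and Rnf43 was 1.31 ± 0.147 CPM per kb (SD, n = 3) in controls and 1.49 ± 0.0459 CPM per kb (SD, n = 3) in knockouts, with overlapping libraries (log2 ratio 0.20, exact permutation p = 0.2). Rspo2 stood at 25.7, 22.3 and 18.6 times Znrf3 per kb in controls and at 6.76, 6.73 and 5.59 times in knockouts (log2 difference -1.79, exact permutation p = 0.1). Znrf3 relative to Lgr4 was 0.429, 0.485 and 0.508 in controls and 0.673, 0.666 and 0.686 in knockouts (log2 difference 0.51, exact permutation p = 0.1). Over these 9 sums and ratios, the Benjamini-Hochberg adjusted p was 0.113 for each but the ligase sum, for which it was 0.2, and the exact permutation of 3 against 3 libraries cannot reach 0.05. The ratios were chosen after the members' values were seen.

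**Figure D4:**
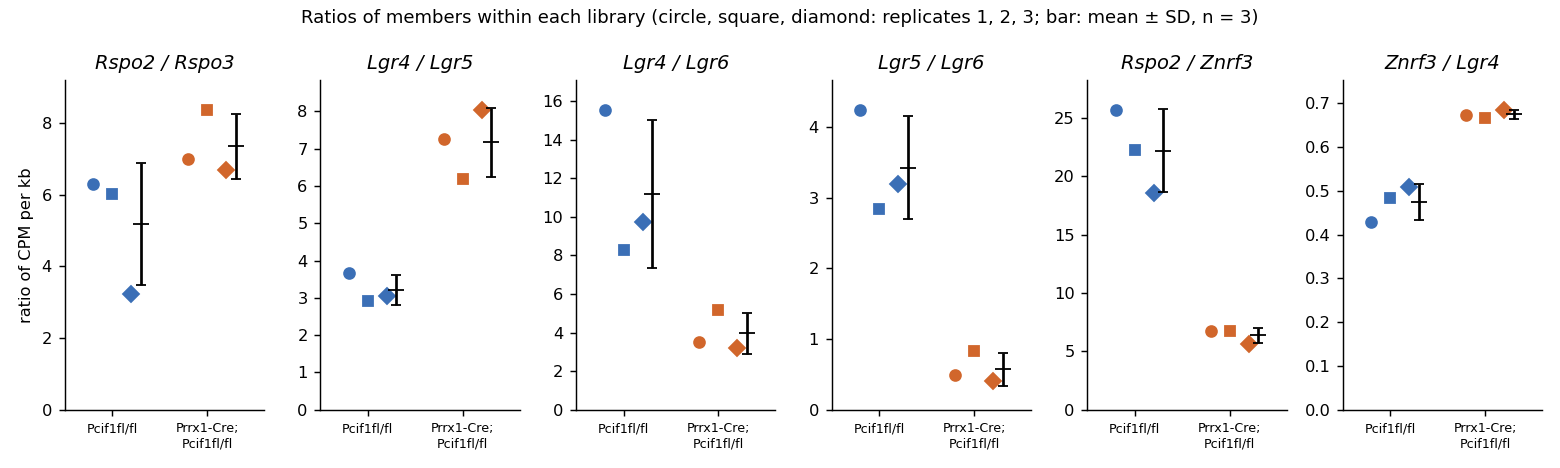
Ratio of CPM per kb between pairs of members (y axis, from 0) in the 3 libraries of each genotype, with the mean and SD (n = 3) beside them. The ratio of Lgr5 to Lgr6 is above 2.8 in every control and below 0.84 in every knockout, while the ratio of Rspo2 to Rspo3 differs mainly through Pcif1fl/fl replicate 3, at 3.23.

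Some markers of cell state moved beside these genes. The adipocyte genes Adipoq, Plin1, Cidec and Cfd, singled out after their values were seen, summed to between 48.1 and 59.8 CPM in controls and between 0.289 and 1.49 CPM in knockouts, with Plin1 and Cfd at 0 in every knockout library. Of the 7 adipocyte markers tested, 5 were called lower and 0 higher, against 2.50% and 1.03% of all genes, whereas Fabp4 and Lpl were not called. Fabp4 was at a higher level in every knockout library than in any control (log2 fold change 0.46, 95% interval 0.19 to 0.72, adjusted p = 0.0545 from edgeR), and Lpl had a log2 fold change of 0.23. The sum of that list, which these 2 dominate, was 476 to 573 CPM against 426 to 614 CPM. Of 8 osteoblast markers tested, 3 (Sp7, Alpl and Ibsp) were called lower and 0 higher, against the same shares of all genes. Col1a1, also on that list, went the other way with a change under the fold threshold (log2 fold change 0.61, adjusted p = 0.0154 from edgeR), and the sum of the list, mostly Spp1, was 14584 to 20716 CPM against 17888 to 26652 CPM. Of 10 stromal markers, Eng was called lower and Thy1 and Ly6a higher, against 2.50% and 1.03% of all genes. The summed level of the list, mostly collagen I, was 7740 to 10168 CPM in controls and 13246 to 14069 CPM in knockouts. Of 6 endothelial markers, 0 were called by edgeR, DESeq2 or limma-voom. With 3.53% of all genes called by edgeR, this says little of a list of this size. Their median log2 fold change was -0.43, and their sum was 24.3 to 37.3 CPM against 21.1 to 23.3 CPM. Of the 6, 1 (Cdh5) was lower in every knockout library than in any control, where 15.7% of all genes tested were. Of 3 chondrocyte markers tested, Comp was called lower, against 2.50% of all genes, and the sum of the list was 38.7 to 50.1 CPM against 32.8 to 39.4 CPM. Lower Rspo2, Rspo3 and Lgr5 thus went with lower levels of 5 of 7 adipocyte genes and 3 of 8 osteoblast genes, and not of all genes of either list, and the part of either cell type in the difference was not tested.

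The genes whose level was most like that of each called member over the 6 libraries were ranked by Pearson's r of log2(CPM + 0.5) among 10553 genes with a mean of at least 5 CPM. All points share the same 6 libraries in 2 genotypes, so high values are common and are a description only. Rspo2 was most like Syt13 (r = 0.9995), Ror1 (0.9981) and Ism1 (0.9973), and 287 genes had an r above 0.95 with it. Rspo3 was most like Adamts9 (0.998), Plekhh2 (0.9979) and Chchd5 (0.9979), Lgr5 like Galnt13 (0.9961), Slc7a2 (0.9953) and Septin8 (0.9944), and Lgr6 like Klhl4 (0.9958), Zranb3 (0.9954) and Tenm3 (0.9915). Ror1 is the 1 gene among them that also stands on the receptor list that follows.

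The Frizzled and LRP proteins are what ZNRF3 and RNF43 remove from the membrane, so their RNA was read alongside. Of 17 receptor complex genes tested (Frizzleds, Lrp5, Lrp6, the Dvl adaptors and the Wnt receptors Ror1, Ror2 and Ryk), 3 were called lower and 0 higher, against 2.50% and 1.03% of all genes, and 14 were not called. At an adjusted p under 0.05 and any fold change 6 were lower and 0 higher, against 4.51% and 2.88% of all genes. Their median log2 fold change was -0.30. The receptor tyrosine kinase gene Ror1 fell from 12.9 ± 1.09 to 4.13 ± 0.569 CPM (SD, n = 3 each), a log2 fold change of -1.64 (adjusted p = 0.000614 from edgeR). Fzd4 fell by 1.36 on the log2 scale (adjusted p = 0.00256 from edgeR). Fzd9 had 7 reads in all knockout libraries together and a log2 fold change of -2.30 (adjusted p = 0.0244 from edgeR), and its call was lost without *Pcif1fl/fl* replicate 1 or any 1 knockout library. Fzd1, Fzd8 and Fzd5 passed the adjusted p with smaller changes of -0.69, -0.89 and -0.43. Fzd5 lost that adjusted p without any 1 library other than *Pcif1fl/fl* replicate 3, with adjusted p from 0.101 to 0.185 (edgeR). For Fzd5, 17.8% of the exonic bases overlap an antisense gene. The abundant co-receptor gene Lrp6, named after its value was seen, had a log2 fold change of -0.29 (95% interval -0.50 to -0.079, adjusted p = 0.107 from edgeR).

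Genes that Wnt signaling switches on were read next. Of 9 feedback targets tested, 2 were called lower and 0 higher, against 2.50% and 1.03% of all genes, and the median log2 fold change was 0.096. Nkd1, an inhibitor that acts on Dvl, fell from 7.22 ± 0.856 to 0.964 ± 0.278 CPM (SD, n = 3 each; log2 fold change -2.90, adjusted p = 0.000283 from edgeR). Tnfrsf19, a receptor of the TNF family, had a log2 fold change of -1.64 (adjusted p = 0.0192 from edgeR), and its call was lost without *Pcif1fl/fl* replicate 1 or 2 or *Prrx1-Cre;Pcif1fl/fl* replicate 1 or 2. The cyclin gene Ccnd1 was higher in every knockout library, at 620 ± 26.4 against 380 ± 25.7 CPM (SD, n = 3 each), a log2 fold change of 0.71 (adjusted p = 0.00248 from edgeR), and 23.4% of its exonic bases overlap an antisense gene. The inhibitor genes Bambi and Apcdd1 had log2 fold changes of 0.31 and -0.19 and were not called. Axin2, the most used readout of canonical Wnt signaling and named here after its value was seen, was at 4.72 ± 0.486 and 5.05 ± 0.869 CPM (SD, n = 3 each). Its log2 fold change of 0.10 had a 95% interval from -0.32 to 0.52 (adjusted p = 0.796 from edgeR). Lef1, Sp5, Notum and Dkk1 were too low to be tested.

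**Figure D5:**
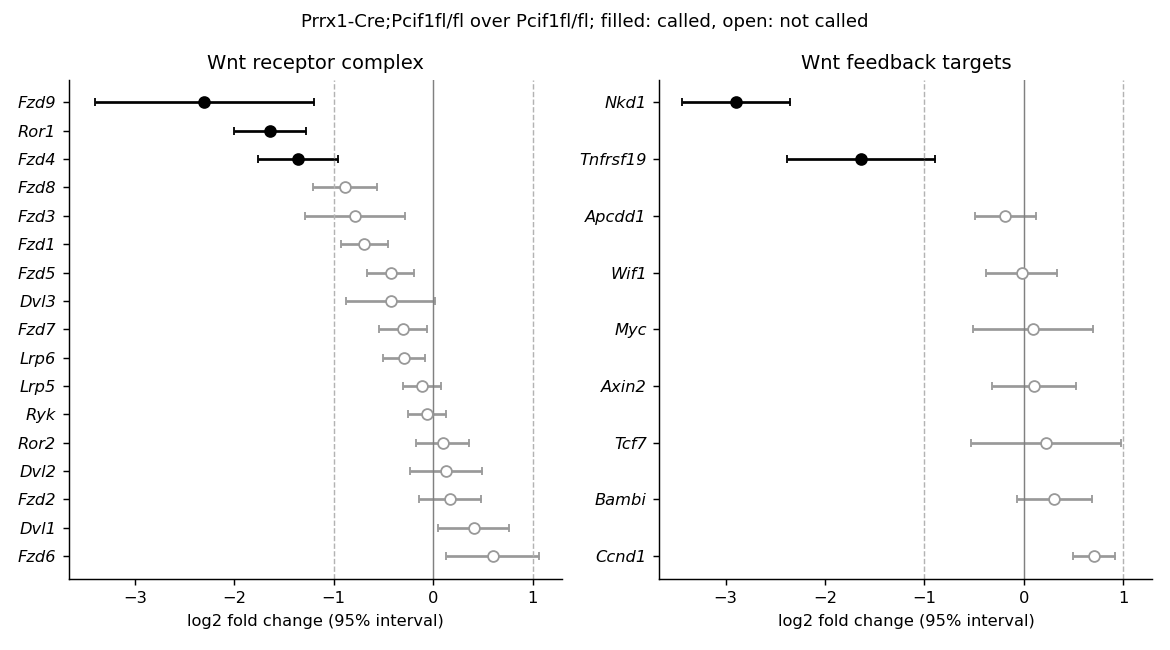
Log2 fold change with its 95% interval (x axis) for the 17 receptor complex genes and 9 Wnt feedback targets tested; filled dots were called and open dots were not, and dashed lines mark -1 and 1. Fzd9, Ror1, Fzd4, Nkd1 and Tnfrsf19 are called lower, and the interval of Axin2 spans 0.

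Relatives and binding partners of the members were read last. Of 6 other ligases of the PA-TM-RING family, to which Znrf3 and Rnf43 belong, 0 were called by edgeR, DESeq2 or limma-voom. At an adjusted p under 0.05 from edgeR and any fold change, 0 were lower and 1 higher, against 4.51% and 2.88% of all genes. With 3.53% of all genes called, a count of 0 says little of a list of this size. Rnf149 had the smallest p among them, with a log2 fold change of 0.56 (adjusted p = 0.00556 from edgeR), and 24.9% of its exonic bases overlap another gene on the same strand. Rnf167 and Rnf150 had log2 fold changes of -0.32 and -0.28. Of 8 heparan sulfate proteoglycans tested, a class of surface molecules that R-spondins bind, 0 were likewise called by these tools. At an adjusted p under 0.05 from edgeR and any fold change, 0 were lower and 0 higher, which says as little of the class. Sdc4, Gpc6 and Gpc1 had log2 fold changes of 0.62, -0.42 and -0.18 (adjusted p = 0.0629, 0.166 and 0.456 from edgeR). Of the hormone receptors of the LGR family, Tshr alone had enough reads to be tested, with a log2 fold change of -0.18 and a 95% interval from -1.21 to 0.85 that leaves its direction unknown.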

How the data were processed

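The authors selected poly(A) RNA from MSCs and sequenced paired ends of 3 libraries per genotype, grouped here by sample title. The deposited values are raw read counts per gene, made by the authors after mapping to mm10 with HISAT2. The counting tool, annotation and use of strand are not given in the sources used here. The 92 repeated rows were dropped. Counts were tested with edgeR 4.0.16 under R 4.3.3 (TMM scaling, filterByExpr, glmQLFit and glmQLFTest, no covariate), with Benjamini-Hochberg adjustment over 13733 genes. Standard errors were taken as the log2 fold change over the square root of F. Intervals are at 95%, and with the floor of 3 counts they cover counting error and the spread between libraries only. Single values were compared by exact two-sided permutation. Lengths, positions and overlaps came from GENCODE M21 on GRCm38 (mm10), which held 20059 of 20071 IDs. Promoters came from RefSeq.

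Alternatives were DESeq2 1.42.0, limma-voom 3.58.1, RLE or total-count scaling, other filters, the replicate block, no X and Y genes, a GC and length correction (splines with 5 degrees of freedom), no fold threshold, and leaving out each library. The fits were tested on simulated counts. The members and lists were chosen with earlier results of these data known. Named genes were all members, the called genes of each pathway list and up to 3 more of its genes with the smallest p, the 3 genes most like each called member, Pcif1, Xist and 4 Y-linked genes. Ratios and their alternatives were added after seeing the data.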

Additional observations from a re-analysis of the deposited data

How the results depend on the processing

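Rspo2, Rspo3 and Lgr5 were called lower, and Lgr4 and Znrf3 were not called, under all 15 alternatives that refit the genes. Their log2 fold changes ranged from -1.65 to -1.48, -2.38 to -1.86, -1.60 to -1.35, -0.39 to -0.27 and 0.14 to 0.29. The number of members called lower was 3 throughout. The number called higher was 1, and it was 0 with the replicate block and between 0 and 1 with 1 library left out, since Lgr6 was lost in 5 of those fits. With the replicate block Lgr6 had a log2 fold change of 1.13 and an adjusted p of 0.0721, and Fzd9 one of -2.31 and 0.0656. Correlations of same-numbered deviations were 0.055, -0.045 and -0.013, so no pairing by replicate number was visible. With 3 libraries per genotype this does not show that the libraries were unpaired. The sign-flip block left the 3 summed levels at -1.68, -0.33 and 0.20, where p cannot go below 0.25. The number of receptor complex genes called, 3 as reported, was 6 with no fold change threshold, 2 with a mean of at least 10 counts or with the replicate block, and between 2 and 3 with 1 library left out. With the replicate block Fzd5 had an adjusted p of 0.0901. The number of feedback targets called was between 1 and 2 with 1 library left out. With 1 library left out, the log2 fold change of Tshr ranged from -0.47 to 0.41 (0.41 and 0.033 without *Pcif1fl/fl* replicate 3 and *Prrx1-Cre;Pcif1fl/fl* replicate 3), and that of Axin2 from -0.042 (without *Prrx1-Cre;Pcif1fl/fl* replicate 3) to 0.21. Of the other alternative values, none changed sign. With 16 and 17 reads per genotype, depth limits what can be said of Rnf43.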
